A study of Mus musculus with 10 samples.

Results

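Transcripts of myelin genes were followed in macrophages and related phagocytes sorted from inflamed mouse spinal cord. The 7 genes were taken by name from the 55487 genes of the count table: *Mbp*, *Mobp*, *Cldn11*, *Mal*, *Cnp*, *Mag* and *Mog*. They were named for their place in myelin and not for a measured value. The donors were 5 adult male C57BL/6 mice with the *Arg1*tm1Lky allele, which marks cells by yellow fluorescent protein (YFP) where *Arg1* is switched on. All 5 mice had experimental autoimmune encephalomyelitis (EAE), induced by immunization with a MOG peptide in adjuvant together with pertussis toxin, and were taken at peak disease, so that no healthy mouse and no other time point entered the comparison. From each spinal cord, viable CD45+CX3CR1+ cells without CD3 and Ly6G were sorted as 200000 YFP+ (ARG1+) and 100000 YFP- (ARG1-) cells, giving 5 ARG1+ and 5 ARG1- libraries of the animals m2, m6, m234, m235 and m236. The gate did not cleanly part macrophages at the borders of the CNS from cells derived from monocytes, and cells were freed from myelin debris before the sort.

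Myelin is the membrane that oligodendrocytes wrap around axons of the CNS. In EAE it is stripped and broken down, and phagocytes engulf the fragments. *Mbp* and *Mobp* encode proteins that hold the cytoplasmic faces of the membrane together, *Cldn11* and *Mal* encode a tight junction protein and a membrane raft protein, *Cnp* encodes an enzyme of the cytoplasmic channels, and *Mag* and *Mog* encode surface glycoproteins. From which cells or material such a transcript came in a sorted phagocyte library was not tested. In pooled cells, fewer cells that carry a transcript and less of it per cell cannot be told apart.

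The libraries held 28870482 to 33826355 counts in the ARG1+ group and 8396863 to 35455643 in the ARG1- group, where the library of m234 was the smallest. Levels are given as CPM, counts scaled to a common library size by the TMM method, and 1 CPM was 8.51 counts in the smallest library. The sort was visible in *Arg1*, which was 813 ± 174 CPM in the ARG1+ libraries and 18.4 ± 4.95 CPM in the ARG1- libraries (SD, n = 5 each). Of 10 macrophage and monocyte markers all 10 passed the filter of CPM above 1 in at least 3 libraries, with *Lyz2*, the macrophage lysozyme, at 11357 ± 1821 CPM in ARG1+ libraries (SD, n = 5). Of 14 neuron markers none passed it, and their summed level was 0.470 to 1.71 CPM.

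All 7 myelin transcripts were counted in all 10 libraries, and 6 passed the filter, *Mog* being the exception. Together they made up 0.0133% to 0.0178% of the counts of a library. Without a block for the animal, 0 of the 6 tested members passed a false discovery rate (FDR) of 0.05 in edgeR's quasi-likelihood test, against 13.0% of the 13740 genes tested. The lowest edgeR FDRs among the 6 were 0.0789 for *Mbp* and 0.0812 for *Cnp*. DESeq2 called 2 of the members and 2583 of the 13740 genes, and limma-trend called 0 of the members and 1755 of all genes. Both libraries of an animal came from the same mouse, and with the animal as a block the same test called 3 of the 6, *Mbp* as higher and *Cnp* and *Cldn11* as lower in ARG1+ cells, where 35.1% of all tested genes were called. None of the 7 had groups that did not overlap, against 11.3% of the tested genes, and none passed the FDR together with a log2 fold change above 1 in size, which 1.45% did.

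**Figure D1:**
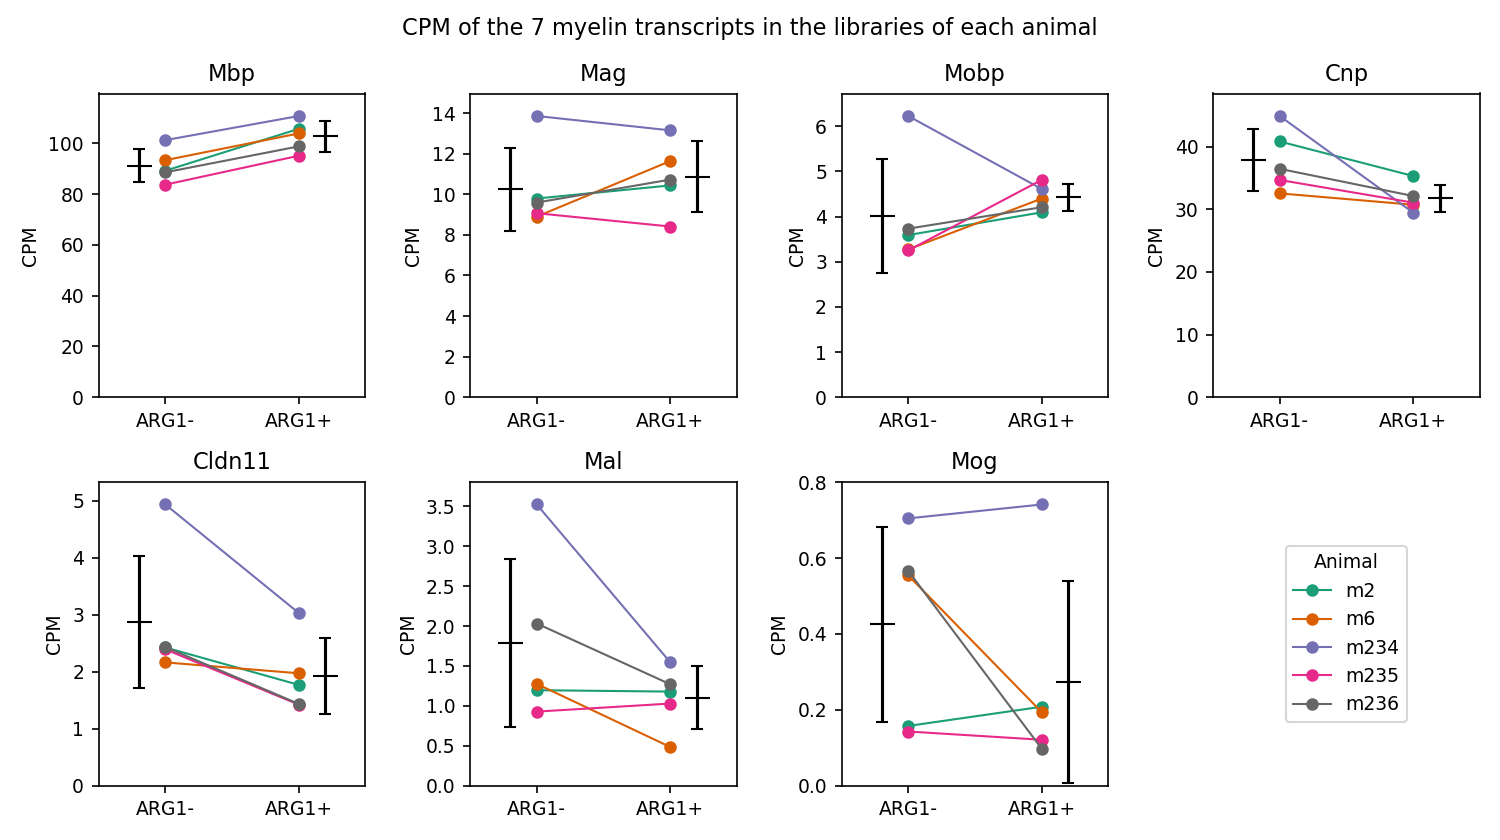
CPM of each of the 7 transcripts (vertical axes from 0, a separate scale for each gene) in the ARG1- and ARG1+ library of each animal, joined by a line. Black bars give the mean and SD of 5 libraries. All 5 lines go up for *Mbp* and all 5 go down for *Cnp* and *Cldn11*, and animal m234 is the highest in both groups for *Mbp*, *Cldn11*, *Mal*, *Mag* and *Mog*.

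*Mbp*, the myelin basic protein that compacts the membrane, had the most counts of the members, 27938 over the 10 libraries. In ARG1+ cells its level was 106 CPM in m2, 104 CPM in m6, 111 CPM in m234, 95.1 CPM in m235 and 98.8 CPM in m236. In ARG1- cells it was 89.2, 93.4, 101, 83.7 and 88.6 CPM in the same order of animals. The groups overlapped by the ARG1- library of m234, which stood above the ARG1+ libraries of m235 and m236, yet within each animal the ARG1+ library was the higher one, by a factor of 1.09 to 1.18. The log2 fold change was 0.18 ± 0.06 (SE; edgeR FDR 0.0789) without the block and 0.17 ± 0.03 (edgeR FDR 0.00306) with it. *Mbp* kept an FDR below 0.05 with the block when any of the 5 animals was left out, the highest being 0.0224 without m2. The coefficient of variation between libraries was 5.92% in ARG1+ and 7.20% in ARG1- cells.

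The *Mbp* row pools transcripts from separate starts. The gene spans chr18:82475146-82585637 on the plus strand (GRCm38). Of its 14 transcripts in the GENCODE M21 basic annotation, 3 start between 82475146 and 82475162 and 11 start between 82554470 and 82554580. The upstream transcripts belong to the Golli forms, which are known from immune cells as well as from the nervous system, and the downstream ones include the classic forms of oligodendrocytes. The gene counts do not separate them, so the level and the difference of *Mbp* cannot be assigned to either.

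*Mobp*, another protein of the cytoplasmic faces (chr9:120149707-120181484, plus strand), had 1173 counts over the 10 libraries. In ARG1+ cells it was 4.09 CPM in m2, 4.40 CPM in m6, 4.61 CPM in m234, 4.81 CPM in m235 and 4.21 CPM in m236, and in ARG1- cells 3.59, 3.27, 6.23, 3.25 and 3.73 CPM. The ARG1+ library was the higher one in 4 of 5 animals, and m234 went the other way, with the highest level of all 10 libraries in its ARG1- cells. The log2 fold change was 0.20 ± 0.17 (edgeR FDR 0.460), and 0.21 ± 0.14 with the block (edgeR FDR 0.294). Without the ARG1- library of m234 it was 0.36 (edgeR FDR 0.0442), and with the block and without animal m234 it was 0.34 (edgeR FDR 0.0340). That ARG1- library was also the one with the fewest counts, 53 of *Mobp*.

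The start of *Mobp* is shown because it stands out in letters among the members. As background, SOX10, a transcription factor that drives myelin genes in oligodendrocytes, belongs to the SOX family, whose core site can be written ACAAAG, or CTTTGT on the other strand. Promoter windows of 250 bases before to 50 bases after the start were read from RefSeq (GRCm38.p6) for 6 of the 7 members, all but *Mbp*. The *Mobp* window held 6 matches, the *Cnp* and *Mag* windows 1 each, and those of *Mog*, *Mal* and *Cldn11* 0. Over all 32851 windows, 18.7% held at least 1 match on either strand and 1 window held as many as 6, that of *Mobp*. Only this motif was searched, and a match is not a binding site. Both windows below are given 5′ to 3′ with the matches in capitals, *Mobp* from chr9:120149492-120149791 (plus strand) and *Cnp* from chr11:100574689-100574988 (plus strand).
Mobp: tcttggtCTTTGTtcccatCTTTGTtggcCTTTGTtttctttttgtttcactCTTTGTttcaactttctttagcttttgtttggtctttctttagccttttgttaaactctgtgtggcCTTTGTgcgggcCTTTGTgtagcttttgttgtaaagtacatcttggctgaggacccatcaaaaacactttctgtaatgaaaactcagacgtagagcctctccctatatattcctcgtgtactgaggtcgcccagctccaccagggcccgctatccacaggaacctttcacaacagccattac
Cnp: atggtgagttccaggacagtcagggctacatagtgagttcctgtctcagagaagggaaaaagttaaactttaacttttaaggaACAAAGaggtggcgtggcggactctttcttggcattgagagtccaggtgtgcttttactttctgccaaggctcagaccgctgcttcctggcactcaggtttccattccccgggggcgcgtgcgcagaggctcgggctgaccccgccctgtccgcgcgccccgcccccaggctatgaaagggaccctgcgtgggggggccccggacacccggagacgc

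The transcripts of the oligodendrocyte regulators themselves were scarce in the same libraries. *Sox10* ranged from 0.151 to 0.486 CPM over the ARG1+ libraries and from 0.214 to 0.535 CPM over the ARG1- libraries, below the filter, with overlapping groups. Of 9 regulators, 1 passed the filter, *Myrf*, which switches on myelin genes, with 1.35 ± 0.15 CPM in the ARG1+ and 1.51 ± 0.23 CPM in the ARG1- libraries (SD, n = 5 each; edgeR FDR 0.579).

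*Cldn11*, the claudin of the tight junctions between myelin layers (chr3:31149920-31164324, plus strand), was lower in the ARG1+ library of every animal. In ARG1+ cells it was 1.77 CPM in m2, 1.97 CPM in m6, 3.03 CPM in m234, 1.42 CPM in m235 and 1.43 CPM in m236, and in ARG1- cells 2.42, 2.16, 4.93, 2.39 and 2.43 CPM. Animal m234 was the highest in both groups, and its ARG1+ library stood above 4 of the 5 ARG1- libraries, so that the groups overlapped by the difference between animals. The log2 fold change was -0.50 ± 0.27 (edgeR FDR 0.236), and -0.55 ± 0.16 with the block (edgeR FDR 0.0204). With the block, the FDR was 0.0553 without m2, 0.0710 without m235 and 0.0668 without m236, while it stayed below 0.05 without m6 or m234.

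*Mal*, a proteolipid of membrane rafts that is also known from T cells and epithelia (chr2:127633226-127656695, minus strand), was counted 15 to 61 times a library. In ARG1+ cells its level was 1.18 CPM in m2, 0.485 CPM in m6, 1.55 CPM in m234, 1.03 CPM in m235 and 1.27 CPM in m236, and in ARG1- cells 1.20, 1.28, 3.52, 0.928 and 2.03 CPM. The ARG1+ library was lower in 4 of 5 animals, m235 being the exception, and the groups overlapped. The log2 fold change was -0.58 ± 0.37 (edgeR FDR 0.325), and -0.61 ± 0.25 with the block (edgeR FDR 0.0836). Of 8 T cell markers 1 passed the filter, *Lck*, and their summed level was 0.893 to 3.37 CPM.

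*Cnp*, the cyclic nucleotide phosphodiesterase of the cytoplasmic channels (chr11:100574904-100591729, plus strand), was the transcript with the next most counts, 9809 over the 10 libraries. In ARG1+ cells its level was 35.3 CPM in m2, 30.7 CPM in m6, 29.5 CPM in m234, 31.1 CPM in m235 and 32.1 CPM in m236, and in ARG1- cells 40.8, 32.5, 44.9, 34.7 and 36.4 CPM. It was lower in the ARG1+ library of all 5 animals, by a factor of 0.657 in m234 to 0.944 in m6, and the groups overlapped because the ARG1+ library of m2 was above the ARG1- libraries of m6 and m235. The log2 fold change was -0.25 ± 0.09 (edgeR FDR 0.0812), and -0.24 ± 0.07 with the block (edgeR FDR 0.0221). With the block, leaving out m2 gave an FDR of 0.0675, and leaving out any other animal kept it below 0.05. *Cnp* is known outside myelin, in many cell types at low level.

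*Mag*, the glycoprotein of the inner membrane that faces the axon (chr7:30899176-30914873, minus strand), showed no difference larger than the spread between animals. In ARG1+ cells it was 10.4 CPM in m2, 11.6 CPM in m6, 13.2 CPM in m234, 8.41 CPM in m235 and 10.7 CPM in m236, and in ARG1- cells 9.79, 8.90, 13.9, 9.07 and 9.59 CPM. The ARG1+ library was higher in 3 animals and lower in 2, and m234 was the highest in both groups. The log2 fold change was 0.11 ± 0.14 (edgeR FDR 0.637), and 0.10 ± 0.09 with the block (edgeR FDR 0.400).

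*Mog*, the glycoprotein of the outermost layer whose peptide was used to induce the disease (chr17:37010743-37023398, minus strand), was close to the limit of detection, with 3 to 23 counts a library and 94 in all. In ARG1+ cells it was 0.208 CPM in m2, 0.194 CPM in m6, 0.742 CPM in m234, 0.121 CPM in m235 and 0.0978 CPM in m236, and in ARG1- cells 0.158, 0.555, 0.705, 0.143 and 0.566 CPM. Both libraries of m234 were high, as were the ARG1- libraries of m6 and m236, and the groups overlapped. In a fit without the filter its log2 fold change was -0.53 ± 0.57 (edgeR FDR 0.622), and at this depth a difference was not detectable.

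**Figure D2:**
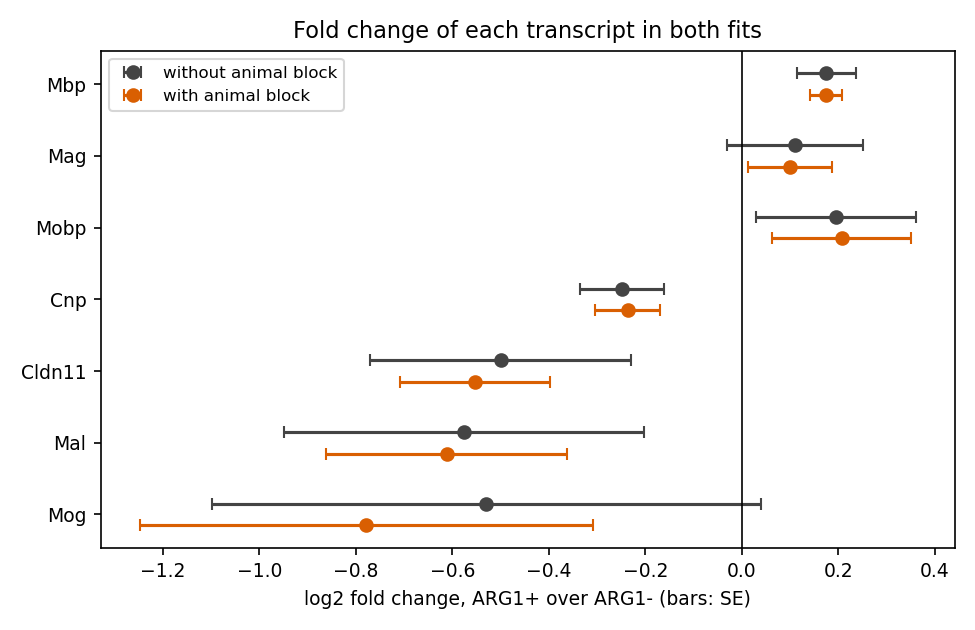
Log2 fold change of ARG1+ over ARG1- cells for each transcript (horizontal axis; bars are 1 SE), without and with the animal as a block. *Mog* is from a fit without the filter on low counts. *Mbp*, *Mag* and *Mobp* lie above 0 and the other 4 below it in both fits, and the SE of *Cldn11* falls from 0.27 to 0.16 with the block.

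The shares of *Mbp* and *Cnp* in the sum of the 7 transcripts separated the groups, while the sum itself did not. The summed CPM of the 7 was 153 ± 8.36 in ARG1+ and 148 ± 15.8 in ARG1- libraries (SD, n = 5 each), with overlapping groups. *Mbp* made up 67.1% ± 0.64 of that sum in ARG1+ libraries, from 66.5% to 67.8%, and 61.7% ± 2.90 in ARG1- libraries, from 57.7% to 65.7%. *Cnp* made up 20.8% ± 1.74 in ARG1+ and 25.5% ± 1.72 in ARG1- libraries. For both shares the groups did not overlap, and since the shares add up to the whole, they are not independent of each other. For the shares of *Mobp*, *Mog*, *Mag*, *Mal* and *Cldn11* the groups overlapped. How often such shares separate in other sets of genes was not tested. These shares were a description with no test.

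The ratio of *Mbp* to *Cnp* counts needs no scaling between libraries. It was 2.99 in m2, 3.38 in m6, 3.76 in m234, 3.06 in m235 and 3.08 in m236 in ARG1+ cells, and 2.19, 2.87, 2.26, 2.42 and 2.43 in ARG1- cells. Every ARG1+ library was above every ARG1- library. The pair was chosen after its values were seen, so no test is given.

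**Figure D3:**
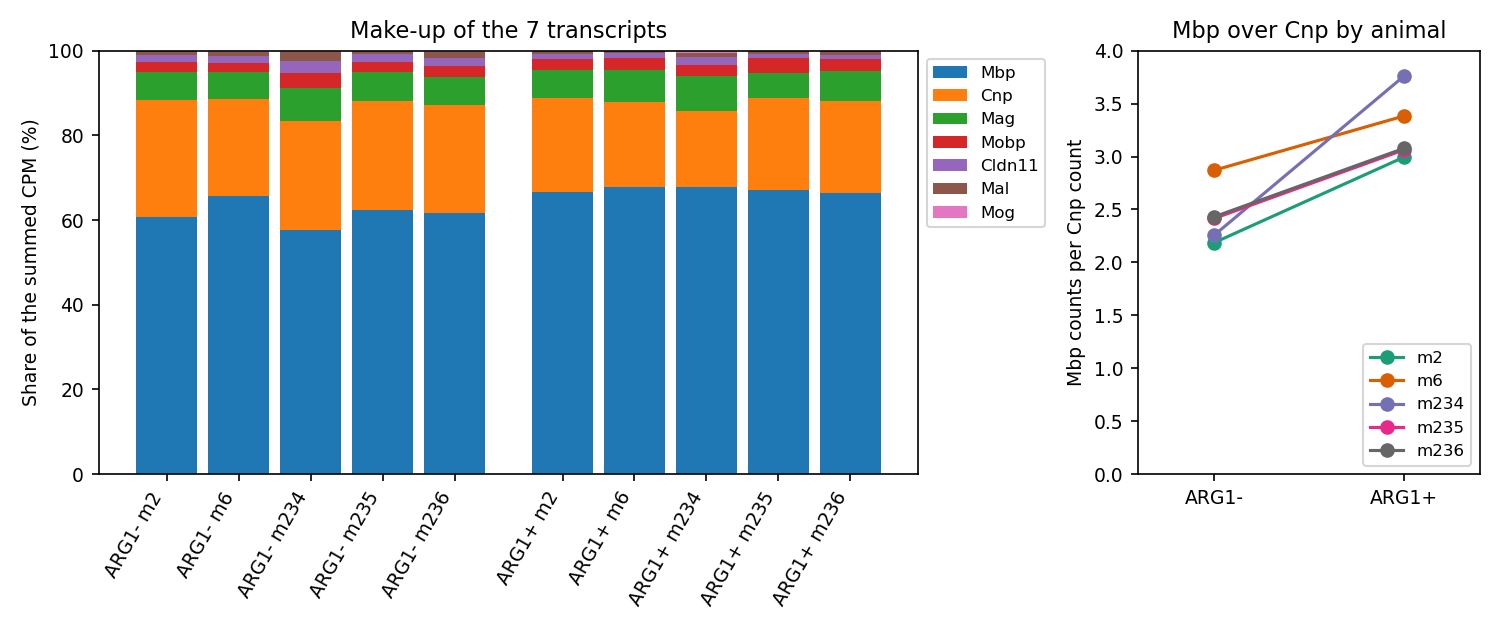
Left, share of each transcript in the summed CPM of the 7 (percent, bars from 0 to 100) in each library. Right, *Mbp* counts per *Cnp* count in the ARG1- and ARG1+ library of each animal. The ratio is 2.19 to 2.87 in ARG1- and 2.99 to 3.76 in ARG1+ libraries.

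To order the members by level, CPM was divided by length, as CPM per kilobase of exon (GENCODE M21 basic annotation). The shares and the ratio above and the sums over gene lists are not scaled by length. Over all 10 libraries the order was *Cnp* at 14.8, *Mbp* at 11.9, *Mag* at 4.33, *Cldn11* at 1.28, *Mobp* at 0.900, *Mal* at 0.521 and *Mog* at 0.205. *Mbp* thus led on the CPM scale and *Cnp* per length. The exons of *Mbp* counted here are those of all its transcripts, 8123 bases against 2357 of *Cnp*, so its level per length would be higher over a shorter transcript. *Cnp* and *Mbp* overlapped in ARG1+ libraries (13.5 ± 0.94 and 12.7 ± 0.75, SD, n = 5) and did not in ARG1- libraries (16.1 ± 2.11 and 11.2 ± 0.81). *Mag* overlapped neither neighbour in either group.

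Lower in the order, *Cldn11* and *Mobp* overlapped in both groups, and so did *Mal* and *Mog*, while *Mobp* and *Mal* overlapped in ARG1- libraries alone. Among all tested genes, *Cnp* stood at percentile 67.1 of this level, *Mbp* at 61.6, *Mag* at 36.8, *Mobp* at 10.9 and *Mal* at 5.86, while *Lyz2* was at 7069 CPM per kilobase.

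**Figure D4:**
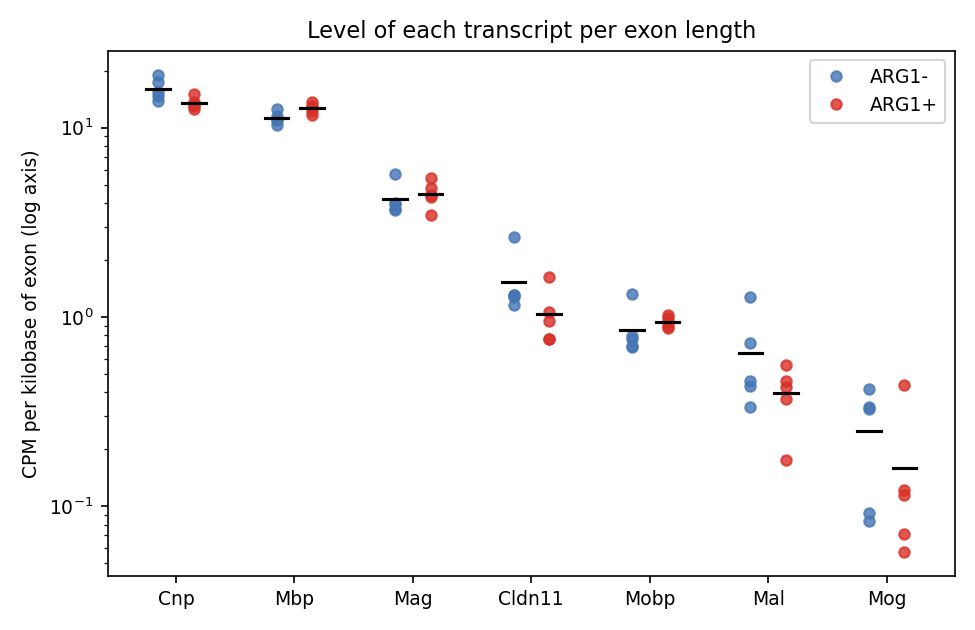
CPM per kilobase of exon of each transcript (log axis) in the 5 ARG1- and 5 ARG1+ libraries, with group means as black lines. The means over all libraries run from 14.8 for *Cnp* to 0.205 for *Mog*.

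Animal m234 set the spread between animals for most members. Both of its libraries were the highest of their group for 5 of the 7 transcripts, which held for 13.0% of the 18615 genes with a mean CPM above 0.1. Its ARG1- level over the median of the other 4 animals was 2.85 for *Mal*, 2.05 for *Cldn11*, 1.98 for *Mog*, 1.81 for *Mobp* and 1.49 for *Mag*, but 1.26 for *Cnp* and 1.14 for *Mbp*. The 2 transcripts with the most counts thus had the ratios closest to 1 in these cells. In ARG1+ cells the same ratio was 4.71 for *Mog* and 1.89 for *Cldn11*, and 0.933 for *Cnp*.

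**Figure D5:**
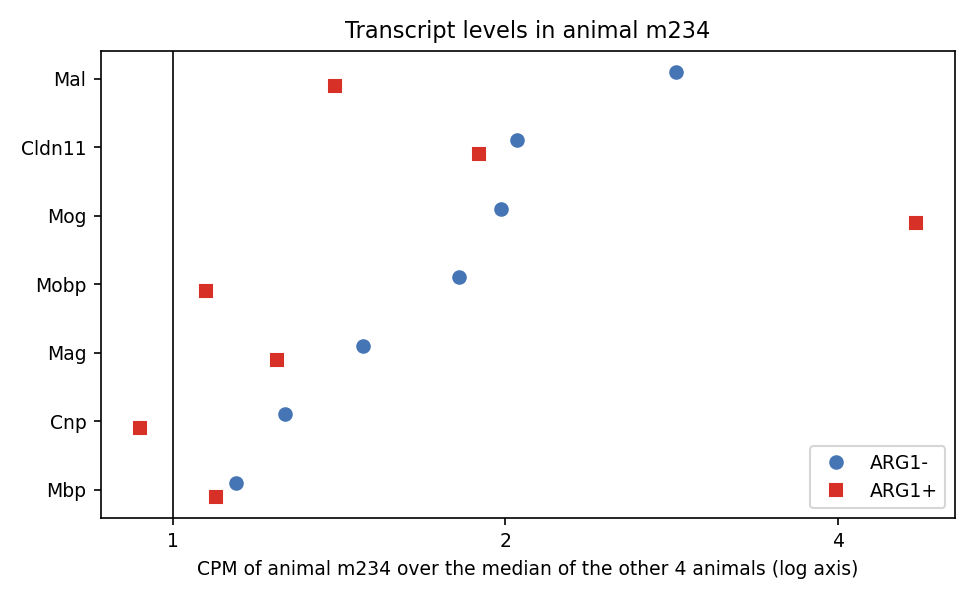
CPM in animal m234 divided by the median of the other 4 animals (log axis) for each transcript, in ARG1- and ARG1+ libraries. The ratio is above 1 for all but *Cnp* in ARG1+ cells and in ARG1- cells is closest to 1 for *Mbp* and *Cnp*.

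In the ARG1- cells of m234 the markers of microglia were high as well. The summed level of 7 microglia markers was 2557 CPM in its ARG1- library, where the lowest of that group was 795 CPM, while the ARG1+ library of m234 was at 1006 CPM, within the 744 to 1111 CPM of its group. Of the 7, 1 was the highest in both libraries of m234, and of 9 astrocyte markers with a mean CPM above 0.1 none was. The summed level of the 27 other oligodendrocyte genes was 103 CPM in its ARG1- library, the highest of that group, whose lowest was 46.2 CPM, and 75.4 CPM in its ARG1+ library, the highest of 38.8 to 75.4 CPM. Of these 2 sums, *Prr5l* alone, a gene not specific to myelin, gave 46.8 CPM and 35.4 CPM. The ARG1- library of m234 also had the lowest depth. The part of any of these in the levels of the members was not tested.

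The members did not rise and fall as 1 group over the 10 libraries. As a description over log2 CPM, in which the 2 libraries of an animal are not independent, Pearson's r was 0.72 between *Mbp* and *Mag*, 0.69 between *Mobp* and *Mag* and 0.63 between *Mbp* and *Mobp*. Between *Mog* and *Cldn11* it was 0.74, between *Mal* and *Cldn11* 0.67 and between *Cnp* and *Mal* 0.63. Between *Mbp* and *Cnp* it was -0.31 and between *Mbp* and *Mal* 0.03. *Mag* and *Cldn11* followed the mean of the other 6 members most closely, at 0.76 each, and *Mbp* least, at 0.32.

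Genes with a pattern like the members' mean were sought among the genes with a mean CPM above 1. Among the 10 with the highest Pearson's r to the mean of the standardised log2 CPM of the members over 10 libraries were *Kctd7* at 0.959, *Rab6b* at 0.959, *Znrf2* at 0.958, *Dcaf4* at 0.956, *Cnr2* at 0.948, *Abca9* at 0.948, *Lpcat1* at 0.943, *Gm6218* at 0.938 and *F9* at 0.935. None of these 9 is a myelin gene of the lists. By Spearman's rank correlation, 1 of the 10 was still among the 10 highest, *Rab6b*. Without the libraries of m234 the same Pearson's r ranged from 0.57 for *Cnr2* to 0.91 for *Rab6b*.

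Of the 27 other genes listed for oligodendrocytes, all had at least 1 count and 8 passed the filter. None of the 8 passed the FDR in edgeR without the block, DESeq2 called 1 and limma-trend 0. Of all 13740 tested genes, edgeR without the block called 1782, DESeq2 2583 and limma-trend 1755. Their median log2 fold change was -0.12, against -0.07 for the 6 tested members and -0.0022 for all tested genes. With the block, 2 of the 8 were called, both as lower in ARG1+ cells, where 35.1% of all tested genes were called. *Prr5l*, a regulator of mTORC2 signalling, had the most counts of the 8. Its log2 fold change was -0.50 ± 0.05 (SE; edgeR FDR 0.000102), at 23.4 ± 7.28 CPM in ARG1+ against 32.8 ± 9.19 CPM in ARG1- libraries (SD, n = 5 each). *Tppp*, which bundles microtubules in oligodendrocytes, was lower, with a log2 fold change of -1.09 ± 0.36 (SE; edgeR FDR 0.0380), with 9.40 CPM in the ARG1- library of m234 and 0.696 to 1.52 CPM in the ARG1+ libraries.

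A further 24 genes are abundant in oligodendrocytes and in other cells alike, of which 18 passed the filter, 3 rose and 1 fell in ARG1+ cells without the block. *Scd2*, a fatty acid desaturase, rose from 106 ± 17.8 to 160 ± 28.7 CPM (SD, n = 5 each; edgeR FDR 0.0156). *Trf*, the iron carrier transferrin, rose from 567 ± 106 to 833 ± 182 CPM (edgeR FDR 0.0427), and *Gsn*, the actin-severing gelsolin, from 313 ± 31.7 to 375 ± 17.8 CPM (edgeR FDR 0.0382). *Car2*, a carbonic anhydrase, fell from 2.32 ± 0.22 to 1.45 ± 0.30 CPM (edgeR FDR 0.0264). With the block, 6 of the 18 rose and 3 fell, where 35.1% of all tested genes were called. *Qdpr*, *Fth1* and *Cd9* then joined those that rose, and *Evi2a* and *Cd81* those that fell. Of 9 genes of oligodendrocyte precursors 1 passed the filter, *Vcan*, a matrix proteoglycan also made by monocytes, which fell from 52.1 ± 12.2 to 26.1 ± 10.2 CPM (edgeR FDR 0.0214).

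Astrocyte markers were present in part. Of 13 markers 7 passed the filter, and the list summed to 65.7 to 102 CPM in ARG1+ and 60.2 to 72.0 CPM in ARG1- libraries. *Aldoc*, a glycolytic enzyme, led it at 56.4 ± 11.3 and 38.5 ± 3.37 CPM (SD, n = 5 each), and the other 6 that passed had group means of 0.912 to 15.1 CPM. In edgeR without the block, 2 of the 7 rose in ARG1+ cells and 0 fell, while 3 had a log2 fold change above 0 and 4 below it. With the block, 2 rose and 1 fell. The largest change was that of *Slc1a3*, lower in ARG1+ cells, with a log2 fold change of -1.94 ± 0.61 (SE; edgeR FDR 0.0570). With the block it was -1.79 ± 0.37 (edgeR FDR 0.00419). The ARG1- library of m234 held its highest level, 10.9 CPM. Of the astrocyte markers below the filter, *Gjb6* was at 0 in all ARG1+ libraries and *Aqp4* reached at most 0.352 CPM. The part of these markers in the levels of the members was not tested. No exon of a member overlapped an exon of another gene on either strand in the GENCODE M21 basic annotation. Of the 50-base stretches of their transcripts in that annotation, 0.361% of *Mbp* and 0.192% of *Mobp* also occurred in another gene's transcript there. None of the other 5 had such a stretch.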

How the data were processed

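The authors made directional libraries, read 50 bases from 1 end, aligned the reads to GRCm38 with STAR 2.7.10b (version per the submitters' processing notes) and counted them over Ensembl release 100 genes with summarizeOverlaps in Union mode. The deposited values are raw counts per gene, without normalization. Strand use in counting: not given in the sources used here.

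In all, 13740 genes above 1 CPM in 3 or more libraries, with 99.8% of the counts, entered edgeR's quasi-likelihood test (edgeR 4.0.16, R 4.3.3) with TMM scaling and Benjamini-Hochberg adjustment over all tested genes. SE and FDR are from these fits. The authors' test was limma-trend. Alternatives were limma-trend (limma 3.58.1), DESeq2 1.42.0, other scaling and filters, leaving out libraries or animals, and the animal as a replicate block. Libraries of the same mouse deviated together (correlation of residuals from the group means across genes 0.361 to 0.664, against -0.367 to 0.0675 between mice). Values with the block are therefore given beside those without it for the tested members. Calls with the block are also given for the other and shared oligodendrocyte genes and the astrocyte markers. The tests were tried on simulated data that had no effect of the animal and larger changes than those of the members. That trial therefore does not bear on the calls of the members. P-values without the block treat the libraries of the same mouse as independent, which they were not. Those with the block measure the difference within a mouse against its spread over these 5 mice. Both kinds rest on these 5 mice alone. The members and gene lists were chosen with earlier results of these data known. Named genes were all members, for each list the most abundant tested gene and that with the largest change where a result turned on it, every tested gene of the oligodendrocyte lists past the FDR, and the 10 genes most like the members' mean, of which 1 is not reported here.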

Additional observations from a re-analysis of the deposited data

Results flagged for a closer look

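In 14 sets of 5 libraries (7 transcripts in 2 groups), the highest or lowest library stood apart by Dixon's limit in 4, all of them with a library of animal m234 as the highest. By chance about 1 in 20 sets is marked in this way, and transcripts of 1 library are not independent. The ARG1- library of m234 stood apart for *Mobp* at 6.23 CPM, *Mag* at 13.9 CPM and *Cldn11* at 4.93 CPM. Its ARG1+ library stood apart for *Mog* at 0.742 CPM, which rests on 23 counts.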

How the results depend on the processing

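With the animal as a replicate block, 3 members, 2 other oligodendrocyte genes and 4826 of all tested genes passed the FDR, 304 of them with a log2 fold change above 1 in size. The log2 fold changes under the block were 0.17 for *Mbp*, -0.24 for *Cnp* and -0.55 for *Cldn11*. With DESeq2, 2 members (*Mbp* at 0.18 and *Cnp* at -0.25), 1 other oligodendrocyte gene and 2583 of all tested genes passed the FDR. No member changed its direction under any alternative run, and none passed the FDR together with 1 log2 unit. Leaving out 1 library or 1 animal without the block gave 0 to 2 members, 0 to 1 other oligodendrocyte genes, 644 to 1948 of all genes, and 123 to 255 past both limits. In the same settings the log2 fold change ranged from 0.15 to 0.22 for *Mbp*, 0.11 to 0.36 for *Mobp*, -0.30 to -0.16 for *Cnp*, -0.72 to -0.29 for *Cldn11*, -0.73 to -0.30 for *Mal* (-0.30 without the ARG1- library of m234), 0.04 to 0.22 for *Mag* (without the ARG1+ and the ARG1- library of m234) and -1.33 to -0.13 for *Mog* (without the ARG1+ library of m234 and without animal m236). Without m234 *Mbp* was past the FDR (0.0460, edgeR) and *Mobp* was not (0.0624). Leaving out each animal with the block was added after seeing the data and gave 1 to 4 members, 1 to 2 other oligodendrocyte genes, and 3090 (without m2), 3526 (m6), 3578 (m235), 4045 (m236) and 5529 genes (m234), with 224 to 327 past both limits (305 without m6, 299 without m235). There the log2 fold change was 0.16 to 0.18 for *Mbp*, 0.12 to 0.34 for *Mobp*, -0.28 to -0.16 for *Cnp* and -0.66 to -0.50 for *Cldn11* (-0.51 without m234). The cause of these shifts was not tested. Per kilobase of exon, *Mbp* made up 35.4% of the members in place of 64.4%. Depth limits *Mog* and *Mal* most.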

Other observations

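Below the filter of the main test, 2 genes of the glial lists passed the FDR in the fit without the filter, and they were chosen after their values were seen. In that fit, 1479 of all 29542 genes passed the FDR. Both genes rest on few counts, 2 to 38 a library for *Cspg4* and 5 to 39 for *St18*. *Cspg4*, the NG2 proteoglycan of precursors and pericytes, had 0.14 ± 0.06 CPM in the ARG1+ and 0.64 ± 0.35 CPM in the ARG1- libraries (SD, n = 5 each; log2 fold change -2.19, edgeR FDR 0.00814). *St18*, a zinc finger regulator, had 0.93 ± 0.31 CPM in the ARG1+ and 0.40 ± 0.16 CPM in the ARG1- libraries (log2 fold change 1.29, edgeR FDR 0.0401).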
